A study of Homo sapiens with 38 samples.

Results

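Genomic sites of induced and of endogenous Sp1 were compared within the same cells, using 6 of the 38 CUT&RUN samples of the series. The cells are U2OS, a human osteosarcoma line, in which the endogenous SP1 gene carries a V5-Halo knock-in and a wild-type Sp1 transgene with a FLAG tag sits at the AAVS1 safe harbor locus under doxycycline control. The transgene carries no V5, so mouse anti-FLAG reads the induced protein, while rabbit anti-V5 and mouse anti-V5 read the tagged endogenous protein. A difference between FLAG and V5 can thus come from the protein, the tag or the antibody, and these cannot be told apart here. The knock-in parent is 1 clone, and the control lines named here carry the same knock-in. Cells were induced for 36 h with 1 µg/ml doxycycline, sorted for transgene expression and grown for another 36 h in doxycycline. Each antibody had 2 biological replicates, which the authors combined into 1 peak list: 5151 peaks for mouse anti-FLAG, 1790 for rabbit anti-V5 and 1332 for mouse anti-V5. The readouts outside this line were the anti-V5 lists of the parental line, which has no transgene, and anti-FLAG lists of the parental line, of a SNAP-NLS line that expresses a nuclear tag alone, and of a line that expresses the isolated Sp1 DNA-binding domain (Sp1 DBD).

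Sp1 is a zinc-finger transcription factor that binds GC boxes, short G-rich elements frequent in the promoters of housekeeping and growth-related genes. It is related to SP3, SP4 and the KLF factors, which recognise similar elements. In CUT&RUN, an antibody brings a nuclease to the bound protein in permeabilized cells, and the released DNA fragments are sequenced. A peak is a stretch where fragments exceed the control, its −log10 p-value is used here only to order peaks within a list, and its summit is the position of highest signal. Absence from a list means that no peak passed the reproducibility threshold of the authors, not that no signal was there.

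Named sites were taken from 3 kinds: peaks in all 3 lists, FLAG peaks without a V5 peak, and peaks of both V5 antibodies without a FLAG peak. The 100 bases to either side of the summit are printed for the 2 leading promoter sites of each kind, so that the DNA under the strongest peaks can be read (hg38, plus strand, 5′ to 3′, with each GGGCGG or its complement CCGCCC in capitals). The first pair was held by all 3 lists.

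BRD3OS, chr9:134025124-134025324: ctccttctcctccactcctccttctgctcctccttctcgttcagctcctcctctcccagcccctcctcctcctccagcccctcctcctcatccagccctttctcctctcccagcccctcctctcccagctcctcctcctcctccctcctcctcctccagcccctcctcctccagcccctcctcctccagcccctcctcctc
APLP1, chr19:35869900-35870100: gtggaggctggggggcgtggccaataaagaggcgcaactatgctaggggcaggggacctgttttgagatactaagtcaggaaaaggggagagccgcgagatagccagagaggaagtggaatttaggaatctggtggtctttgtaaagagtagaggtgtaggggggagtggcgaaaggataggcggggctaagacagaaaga

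The second pair consists of the strongest FLAG promoter peaks without a V5 peak.

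SIN3A, chr15:75451761-75451961: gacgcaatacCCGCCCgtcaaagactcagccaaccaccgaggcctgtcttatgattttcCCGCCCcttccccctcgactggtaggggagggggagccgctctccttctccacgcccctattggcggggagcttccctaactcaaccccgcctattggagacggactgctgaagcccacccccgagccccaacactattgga
KDM6B, chr17:7833952-7834152: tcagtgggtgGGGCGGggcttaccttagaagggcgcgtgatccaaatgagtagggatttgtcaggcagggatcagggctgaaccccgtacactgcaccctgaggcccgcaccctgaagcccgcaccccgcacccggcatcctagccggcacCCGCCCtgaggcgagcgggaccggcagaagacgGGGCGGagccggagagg

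The last pair was held by both V5 lists and not by the FLAG list.

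PLAUR, chr19:43668435-43668635: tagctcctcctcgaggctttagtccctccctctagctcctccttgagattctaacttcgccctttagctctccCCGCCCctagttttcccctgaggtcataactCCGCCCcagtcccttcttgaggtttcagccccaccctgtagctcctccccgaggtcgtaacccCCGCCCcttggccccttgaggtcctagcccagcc
TMEM141, chr9:136790981-136791181: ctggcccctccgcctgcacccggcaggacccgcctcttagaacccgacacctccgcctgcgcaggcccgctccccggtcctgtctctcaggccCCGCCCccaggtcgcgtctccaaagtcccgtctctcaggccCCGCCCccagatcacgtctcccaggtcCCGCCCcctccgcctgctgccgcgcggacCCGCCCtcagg

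The window at BRD3OS, a gene on the strand opposite to BRD3, held no GC box and ran as a tandem array of short pyrimidine-rich units with a GC content of 66.7%. The window at APLP1, which encodes an amyloid precursor-like protein, also held none. A GC box here means an exact GGGCGG or CCGCCC, and variant forms were not counted. The PLAUR window held 3 GC boxes and the TMEM141 window 4, against 2 at SIN3A and 3 at KDM6B. These windows do not stand for their kinds: a GC box lay within 100 bp of the FLAG summit at 79.2% of the sites in all 3 lists and at 67.3% of the FLAG-only sites, and within 100 bp of the rabbit V5 summit at 80.2% of the sites of both V5 lists without FLAG.

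Most endogenous sites were also sites of induced Sp1. Of the 1790 rabbit V5 peaks, 1372 overlapped a FLAG peak by at least 1 bp (76.6%, 95% Wilson interval 74.6% to 78.6%), and of the 1332 mouse V5 peaks 1089 did (81.8%, 79.6% to 83.7%). The reverse share was smaller: 1516 of 5151 FLAG peaks overlapped a V5 peak of either antibody (29.4%, 28.2% to 30.7%). The V5 lists overlapped each other at 63.6% of the rabbit peaks and 84.6% of the mouse peaks. At whole length, rabbit V5 peaks were found more often in the FLAG list alone (431) than in the mouse V5 list alone (197; exact binomial test, adjusted p = 1.0e-20). The FLAG list is longer, and with the best 1332 peaks of each list the direction turned: 86 rabbit V5 peaks were in the FLAG list alone and 349 in the mouse V5 list alone (adjusted p = 4.9e-38). At that length 54.9% of rabbit and 59.2% of mouse V5 peaks overlapped a FLAG peak, whereas 74.6% of rabbit peaks overlapped a mouse V5 peak. Mouse V5 peaks were in the FLAG list alone at 159 and in the rabbit V5 list alone at 197 sites at whole length (adjusted p = 0.0497), and at 148 and 348 at equal length (adjusted p = 1.7e-19). Mouse V5 peaks had a FLAG partner more often than rabbit V5 peaks (Fisher's exact test, adjusted p = 0.0011 at whole and 0.028 at equal length). That test takes the V5 lists as separate sets of peaks, though they share most of their sites, and makes no allowance for this. Outside repeated sequence the shares were close, at 81.85% of mouse and 80.57% of rabbit V5 peaks, with no test. These p-values compare lists of peaks, not cultures, because each list is a single product of its replicates.

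Merging the 3 lists gave 5613 sites. Of these, 928 were in all 3 lists, 428 in FLAG and rabbit V5, 158 in FLAG and mouse V5, and 3635 in FLAG alone. A further 197 were in both V5 lists without FLAG, 221 in rabbit V5 alone and 46 in mouse V5 alone. The control FLAG lists of the parental line (22 peaks) and the SNAP-NLS line (295 peaks) held 0 and 20 of the 5151 FLAG peaks. Lists that short could overlap only a small part of the FLAG list. The parental V5 lists held 1987 (rabbit) and 1830 (mouse) peaks, and the Sp1 DBD list 3277.

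The share of FLAG peaks with a V5 partner followed their strength, while that of V5 peaks with a FLAG partner hardly did. With each list split by −log10 p into 10 rank classes of about equal size, 90.7% of FLAG peaks in the highest class overlapped a V5 peak, 21.5% in the fifth and 2.48% in the lowest. The parental V5 lists, from cells without the transgene, gave a similar course, with 89.9% in the highest and 8.21% in the lowest class. In the V5 lists the share with a FLAG peak was 78.8% in the highest and 72.2% in the lowest class for rabbit V5, and 82.7% and 83.0% for mouse V5. Over the 10 classes it ran from 70.9% to 81.0% for rabbit V5 and from 76.7% to 85.8% for mouse V5, so that FLAG peaks were missing at strong and at weak endogenous sites alike.

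**Figure D1:**
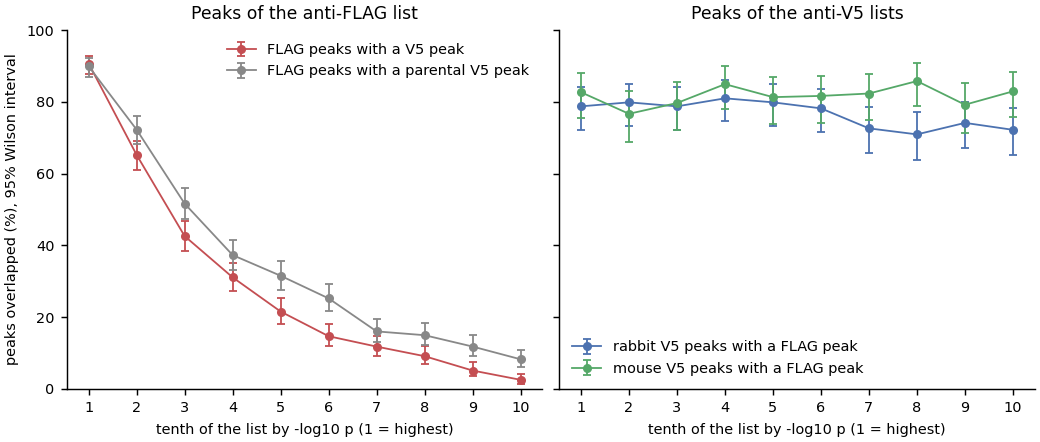
Share of peaks overlapped (y axis, percent, bars are 95% Wilson intervals) in 10 rank classes of each list in order of −log10 p (x axis, 1 is the highest). FLAG peaks with a V5 peak fell from 90.7% to 2.48%, whereas V5 peaks with a FLAG peak stayed between 70.9% and 85.8% in every class of either V5 list.

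At sites in all 3 lists, the leading promoters were strong in each replicate. BRD3OS had −log10 p-values of 111.9 and 158.7 in the FLAG replicates, 128.1 and 131.0 in rabbit V5 and 163.0 and 195.2 in mouse V5. SLC27A1, a fatty acid transporter, had 108.5 and 162.6 in FLAG, 93.9 and 116.3 in rabbit V5 and 139.0 and 162.7 in mouse V5. CCDC9 had 99.9 and 154.1, 91.5 and 111.8, and 153.5 and 241.0 in the same order. At each of these the peaks of the 3 antibodies lay within the top 2% of their lists. Read numbers were not analysed here, so the values are not compared across antibodies. RALY, an RNA-binding protein gene, held 4 GC boxes within 100 bp of the summit and DNPEP, an aspartyl aminopeptidase gene, held 8. SMURF1, an E3 ubiquitin ligase gene, and the promoter shared by VMAC and the complex I subunit gene NDUFA11 completed the 8 sites. All 8 were also in the Sp1 DBD list and in the parental mouse V5 list.

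FLAG peaks without a V5 peak were weaker as a class but included strong promoters. SIN3A, which encodes the scaffold of a histone deacetylase complex and is a partner of many repressors, had FLAG −log10 p-values of 109.8 and 137.7, the 9th highest value of the list, in a peak of 6240 bp. KDM6B, an H3K27 demethylase gene, had 66.0 and 105.9 in a peak of 4031 bp. PRMT1, an arginine methyltransferase gene, had 63.7 and 110.0. CHD4, the remodelling ATPase of the NuRD complex, had 59.4 and 107.7. INAFM1, RABAC1, PRPSAP1 and CREBRF followed with values from 58.4 to 109.0. All 8 were in the Sp1 DBD list, and INAFM1 and CHD4 were in both parental V5 lists, so that endogenous Sp1 had a listed peak there in cells without the transgene. Over all 3635 FLAG-only sites, 14.3% were in a parental V5 list and 40.1% in the Sp1 DBD list, against 95.6% and 76.3% of the sites in all 3 lists.

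The V5 sites without a FLAG peak were of unlike kinds. The 197 sites in both V5 lists resembled the 928 that also had FLAG: 95.9% against 95.6% were in a parental V5 list, 83.8% against 81.5% held a GC box, 80.2% against 78.0% were at coding promoters, and the median mouse V5 −log10 p-value was 27.9 against 25.8. The Sp1 DBD list, made with the same anti-FLAG antibody, held 69.5% of them (95% Wilson interval 62.8% to 75.6%) against 76.3% (73.5% to 78.9%). A FLAG peak lay within 1 kb of 4 of the 197. PLAUR, the urokinase receptor gene, had 102.3 and 121.6 in rabbit V5 and 125.8 and 156.0 in mouse V5. TMEM141 had 85.5 and 127.4, and 119.6 and 187.6. SPAG4 had 99.99 and 90.73, and 110.8 and 154.3. These values lay in the top 3% of either V5 list, among those of the sites held by all 3 lists. CARD19, the promoter shared by TSEN34 and MBOAT7, HDGFL2, CCM2 and the promoter shared by TMEM256 and NLGN2 followed, and all 8 but TMEM256 were in the Sp1 DBD list. The 221 sites in rabbit V5 alone differed from these: 33.5% held a GC box, 34.4% were at coding promoters, 49.8% lay in repeated sequence, and 8.14% were in a control FLAG list, against 0 of the 197. The 46 sites in mouse V5 alone went the same way. Of these, 56.5% held a GC box, 45.65% were at coding promoters, 34.8% lay in repeated sequence and 15.2% were in a control FLAG list.

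**Figure D2:**
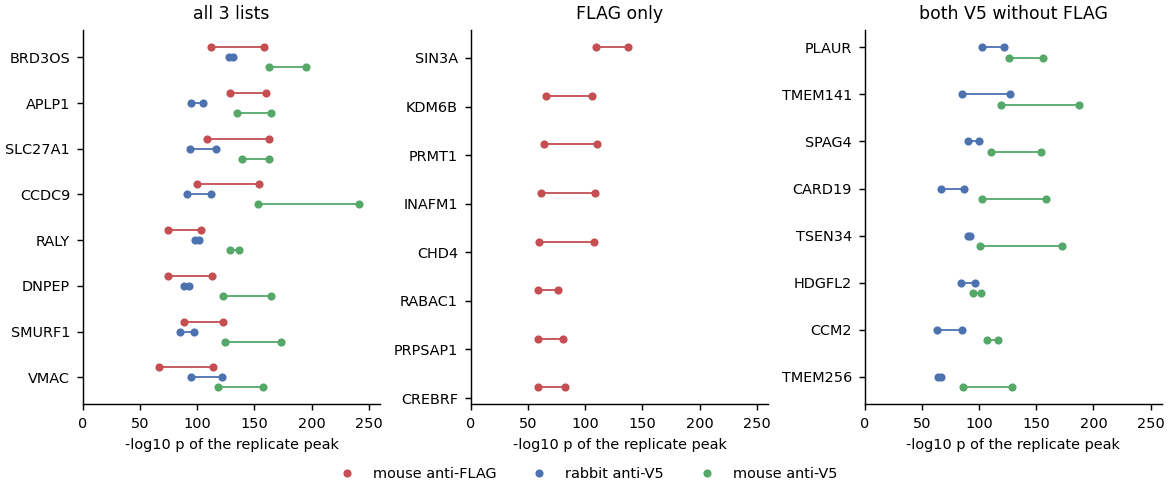
−log10 p-value of the peak in each of the 2 replicates (x axis, points joined by a line per antibody) at the 8 leading coding promoters of each kind of site (y axis). SIN3A lies at 109.8 and 137.7 with no V5 peak, and PLAUR at 102.3 to 156.0 in the V5 replicates with no FLAG peak.

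The SP1 gene itself, on chromosome 12 (hg38, 53380176 to 53416446), belonged to the last kind. A single site covered its promoter (53379398 to 53380999), with 75.1 and 70.2 in the rabbit V5 replicates and 66.6 and 91.8 in the mouse V5 replicates, 2 GC boxes near the summit, and no FLAG peak. It was in both parental V5 lists and in the Sp1 DBD list. No peak of the 3 lists was found at PPP1R12C on chromosome 19, the gene that holds the AAVS1 locus.

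Where all 3 lists held a site, the order of the sites by strength was shared in part. Over the 928 sites Spearman's rho was 0.60 between FLAG and rabbit V5, 0.63 between FLAG and mouse V5, and 0.82 between the V5 antibodies. The replicates of a list gave 0.81 for FLAG, 0.83 for rabbit V5 and 0.90 for mouse V5 over the same sites. Replicate by replicate, FLAG against either V5 ranged from 0.58 to 0.67, and rabbit V5 against mouse V5 from 0.78 to 0.81. These correlations are over sites of the same libraries and carry no test. The 928 sites also lie in unlike parts of the lists. Their median position from the top was 12.9% of the FLAG list, 35.1% of rabbit V5 and 45.05% of mouse V5.

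Individual sites were tested on the ranks within each replicate, converted to normal scores, with limma over all 928 sites (3 group means, Benjamini-Hochberg adjustment). Of these, 68 ranked higher in FLAG than in the mean of the V5 lists (7.33% of sites tested) and 66 ranked lower (7.11%). Rabbit V5 against mouse V5 gave 0 calls in the same fit (0% of sites tested), with 127 sites under an unadjusted p of 0.05, against 318 for FLAG. That comparison set 2 columns against 2, and FLAG against both V5 lists 2 against 4. Both V5 antibodies read the same tag on the same protein, so their comparison does not cover a difference of tag. Set 2 against 2 as well, FLAG differed from rabbit V5 at 100 sites (10.8% of sites tested, 296 under an unadjusted p of 0.05) and from mouse V5 at 65 (7% of sites tested, 266 unadjusted). Leaving out a column lowered the 100 calls to between 0 and 42. The 65 became 0 to 6 without a FLAG or mouse V5 column and 78 without either rabbit V5 column. The number of calls for FLAG leaned on single replicates: 9 sites were called without the first FLAG column and 33 without the second, 55 and 46 without a mouse V5 column, and 76 and 95 without a rabbit V5 column. Tied peaks share a mean rank.

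Among promoters that ranked higher in FLAG, COQ6, an enzyme of coenzyme Q synthesis, was at ranks 143 and 114 of 928 in the FLAG replicates and between 694 and 819.5 in the 4 V5 replicates (score difference 2.10 ± 0.25 SE, limma adjusted p = 0.0062). DMAC2L, linked to the mitochondrial ATP synthase, was at 267 and 257 in FLAG and between 858.5 and 914 in V5. TRAPPC9 and SYS1, both of vesicle traffic, were at 122 and 98, and at 218 and 265, with V5 ranks from 609 to 784.5. NFE2L1, a regulator of proteasome genes, was at 287 and 216 in FLAG and between 748.5 and 835 in V5. In each of these both FLAG replicates ranked higher than all 4 V5 replicates. That order also held at 111 of the 794 sites without a call, and at 179 of all 928. These promoters were picked by the lowest p on the same ranks, so the order adds no support. Without the first FLAG column the limma adjusted p was 0.048 at COQ6 and TRAPPC9, and the call was lost at DMAC2L (0.052), SYS1 (0.060) and NFE2L1 (0.060). NFE2L1 also lost it without the second FLAG column (0.054).

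Of the promoters that ranked lower in FLAG, TCF3, a basic helix-loop-helix factor gene, was at 898.5 and 870.5 in FLAG and between 388.5 and 525 in V5 (score difference -1.68 ± 0.24 SE, limma adjusted p = 0.0074). HNRNPC, an RNA-binding protein gene, was at 908 and 893 against 462 to 719. NMT2, an N-myristoyltransferase gene, was at 688 and 501.5 against 105 to 167. PITRM1, a mitochondrial protease gene, was at 654.5 and 686.5 against 180 to 289. GINS4, a subunit of the replicative helicase, was at 885 and 906 against 519.5 to 691. In each of these both FLAG replicates ranked lower than all V5 replicates, as at 138 of the 794 sites without a call and 204 of all 928. All 5 lost the call without the first FLAG column, with limma adjusted p from 0.066 at TCF3 to 0.075 at NMT2, and PITRM1 (0.057) and GINS4 (0.067) also without the second.

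The Sp1 DBD list, which the ranks did not use, held 63 of the 68 sites higher in FLAG (92.6%, 95% Wilson interval 83.9% to 96.8%), 33 of the 66 lower (50.0%, 38.3% to 61.7%) and 77.1% of the sites without a call. That list was made with the same antibody as the FLAG list, and the part of the antibody in this difference was not tested. The calls use the FLAG ranks, so sites higher in FLAG tend to be the stronger FLAG peaks. The shares were not compared at equal FLAG strength. A GC box lay near the summit at 75% of the sites higher in FLAG, 77.3% of those lower and 79.7% of the rest, so their intervals overlapped.

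**Figure D3:**
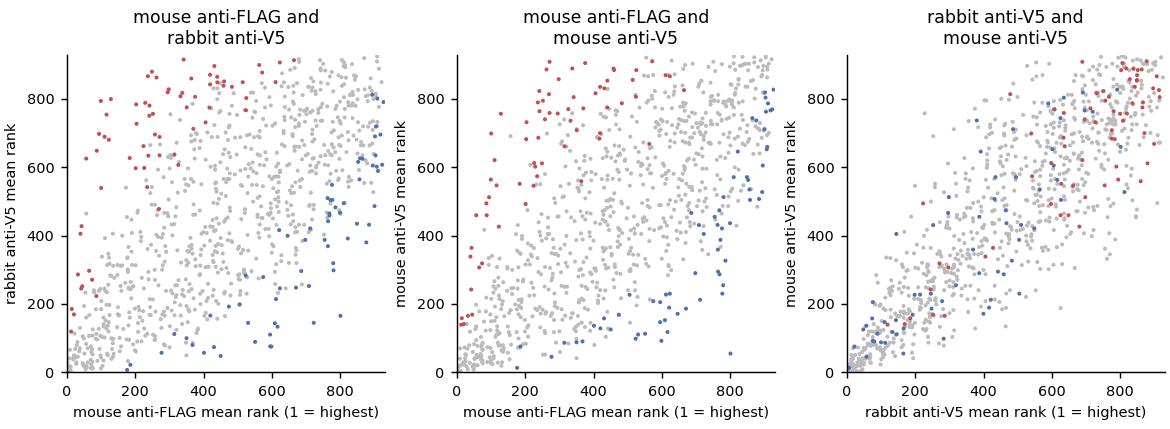
Mean rank over the 2 replicates at the 928 sites in all 3 lists (rank 1 is the highest on each axis), for each pair of antibodies. Red points are the 68 sites that ranked higher in FLAG and blue points the 66 that ranked lower. The points scatter more widely with FLAG (rho 0.60 and 0.63) than between the V5 antibodies (0.82).

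FLAG peaks were broader than V5 peaks at the same sites. The median width over the 928 sites was 1195 bp in FLAG, 630.5 bp in rabbit V5 and 620 bp in mouse V5. The median ratio of FLAG width to rabbit V5 width was 1.79, with FLAG wider at 905 sites, and to mouse V5 width 1.83, with FLAG wider at 913. The FLAG replicates had medians of 912.5 and 1177 bp, above the 4 V5 replicates with 437 to 615 bp, and at 85.3% and 89.2% of sites the narrower FLAG replicate exceeded every replicate of rabbit and of mouse V5. FLAG was also broader at the 66 sites where it ranked lower (median 1003 bp, against 580.5 and 562 bp). The read depth behind these widths was not analysed here.

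The summits lay close together. The median distance between merged peaks was 28 bp for FLAG and rabbit V5 and 27 bp for FLAG and mouse V5, beside 20.5 bp for the V5 antibodies. Between single replicates it was 33.5 to 39 bp for FLAG and rabbit V5, 26 to 36 bp for FLAG and mouse V5 and 25 to 29 bp for the V5 antibodies. Within an antibody the replicates lay 31.5 bp apart for FLAG, 32 bp for rabbit V5 and 19 bp for mouse V5, so that the replicate medians for FLAG and rabbit V5 were above those within either antibody, a difference that was not tested. Merged summits of FLAG and V5 were within 100 bp of each other at 85.7% (rabbit) and 85.9% (mouse) of sites. At the 723 of these sites with a coding promoter, the summit lay upstream of the nearest start in 76.9% for FLAG, 80.5% for rabbit V5 and 79.8% for mouse V5, at a median of -127, -128 and -126 bp.

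**Figure D4:**
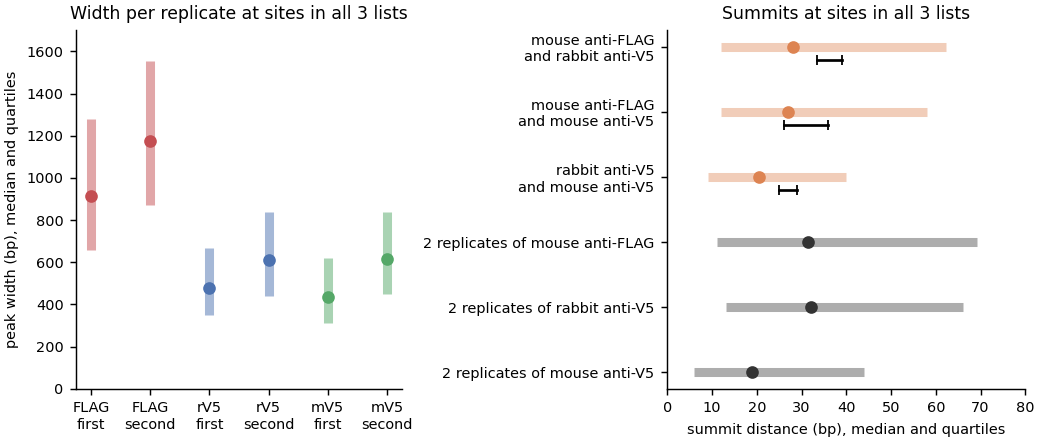
Left, peak width in each replicate column (y axis, bp) and right, distance between summits (x axis, bp) at the 928 sites in all 3 lists. Points are medians (merged peaks between antibodies, single replicates within one), bars run from the lower to the upper quartile, and thin black lines give the lowest to highest median over pairs of single replicates of different antibodies. Both FLAG replicates (912.5 and 1177 bp) lie above all V5 replicates, and the line for FLAG and rabbit V5 (33.5 to 39 bp) lies above the medians within each antibody (19 to 32 bp).

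Within the FLAG list, peaks shared with V5 differed from FLAG-only peaks in width, GC boxes and gene context, in part with their strength. The shared peaks had a median width of 1126 bp, the others of 873 bp (permutation test of the mean rank, p = 1e-05, the smallest that the draws allow). A GC box lay within 100 bp of the summit in 76.9% of the 1516 shared and 67.3% of the 3635 FLAG-only peaks (Fisher's exact test, adjusted p = 1.1e-11, with an odds ratio of 1.61). In windows 2000 bp from the FLAG summits the share was 7.75%, and in windows of the same length before the starts of 35116 RefSeq promoters (GRCh38.p14) 38.4%. Divergent coding promoters, where a pair of genes starts back to back, made up 15.6% against 8.69% (adjusted p = 3.5e-12). Promoters of any gene held 83.8% against 80.6% (adjusted p = 0.013) and coding promoters 78.8% against 73.1% (adjusted p = 3.9e-05). Shared peaks are stronger, however, and with the FLAG list split into 4 rank classes the median widths of shared and FLAG-only peaks were 1328 and 1258 bp in the highest class, 949 and 974 bp in the second, 816 and 852.5 bp in the third and 757 and 703 bp in the lowest, with no test. The coding promoter shares were 78.6% and 79.4% in the highest class, 79.8% and 73.7% in the second, 74.5% and 73.1% in the third and 85.2% and 70.7% in the lowest, where only the second (adjusted p = 0.045) and the lowest (adjusted p = 0.040) passed Fisher's exact test. The GC box difference passed in the upper 2 classes, with 77.6% against 65.6% and 77.5% against 68.3%. Divergent promoters were 16.03% and 13.55% in the highest class, 16.4% and 9.99% in the second, 13.04% and 7.64% in the third and 11.5% and 7.24% in the lowest, and only the second passed (adjusted p = 0.0068).

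The V5 lists differed from each other in what their peaks without FLAG held. Of the 418 such rabbit V5 peaks 55.7% were at coding promoters, 55.5% held a GC box and 28.9% lay in repeated sequence, against 78.6%, 79.9% and 8.75% of the 1372 with FLAG. For mouse V5 the shares were 73.7%, 78.6% and 11.1% of 243, against 77.7%, 81.5% and 8.54% of 1089, and none of the 3 passed the test. Summits outside genes and promoters did differ for mouse V5, at 9.88% without FLAG against 5.51% with it (Fisher's exact test, adjusted p = 0.028). For rabbit V5 they were 28.2% against 6.71% (adjusted p = 4.7e-27). The V5 lists were not tested against each other in these shares. Mouse V5 peaks without FLAG were wider than those with it, at medians of 658 and 610 bp (permutation p = 0.0061, unadjusted). Rabbit V5 peaks without FLAG were narrower, at 547.5 and 589 bp (permutation p = 0.0356, unadjusted), but they mix unlike classes. At the 197 sites of both V5 lists the rabbit V5 median was 715 bp, above the 630.5 bp of the 928 sites in all 3 lists. At the 221 sites of rabbit V5 alone it was 423 bp.

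A coding promoter was counted as held when a summit lay within 1000 bp of a start. Of 19676 coding genes, 4389 had a FLAG summit (22.3%), 1591 a rabbit V5 summit (8.09%) and 1234 a mouse V5 summit (6.27%). FLAG and V5 were both found at 1450 genes (7.37%), FLAG without V5 at 2939 (14.9%) and V5 without FLAG at 299 (1.52%). Genes that share a promoter count the same peak. A count with V5 takes a peak of either V5 antibody. The values below are −log10 p, for FLAG in both replicates and for V5 of the merged peak.

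Among SP and KLF factors, the family of Sp1 itself, 13 of 27 genes had a FLAG summit (48.15%), 7 of them with V5 (25.9% of the list). Over all coding genes these shares were 22.3% and 7.37%. SP4 had FLAG replicate values of 63.7 and 95.7, with V5 values of 12.7 (rabbit) and 20.8 (mouse), and KLF10 had 55.1 and 99.7, with mouse V5 at 15.2. SP3, named here for its kinship after its values were seen, had FLAG alone at 15.3 and 31.8, and SP1 had V5 alone. Of 28 genes often described as Sp1 targets, 14 had FLAG (50%) and 5 of these V5 (17.9% of the list). PCNA, the replication clamp, had FLAG at 41.5 and 65.1 and rabbit V5 at 21.8. SOD1, the cytosolic superoxide dismutase gene, had FLAG alone at 29.4 and 50.6, and E2F1, a cell cycle regulator, had mouse V5 at 11.4 beside FLAG at 27.8 and 42.5.

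Cholesterol and fatty acid genes showed the highest share with FLAG of the 12 lists, 18 of 28 (64.3%, against 22.3% of all coding genes). Of these, 7 had V5 (25% of the list, against 7.37% of all coding genes). All 7 had rabbit V5, whereas mouse V5 was at 2 of the 28 (7.14%), near the 6.27% of all coding genes. PMVK, LSS and MSMO1, enzymes of the mevalonate and sterol steps, had FLAG values from 31.4 to 69.5 and a rabbit V5 peak. Only LSS among them also had a mouse V5 peak. ACLY, which makes cytosolic acetyl-CoA, had FLAG alone at 34.03 and 46.99. DNA replication genes stood at 19 of 43 with FLAG (44.2%), and 13 of these had V5 (30.2% of the list). The origin recognition gene ORC6 led with FLAG at 62.4, while POLD4, a subunit of DNA polymerase delta, had FLAG alone at 47.1 and 68.8. Proteasome genes were at 21 of 48 with FLAG (43.75%) and 6 with V5 (12.5%), led by PSME2 with FLAG at 94.3 and 128.3. Rabbit V5 was at 5 of the 48 (10.4%, against 8.09% of all coding genes) and mouse V5 at 3 (6.25%, against 6.27%).

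Cytosolic ribosomal protein genes were near the background for FLAG, at 17 of 79 (21.5%, against 22.3% of all coding genes). They were below it for V5, found with FLAG at 3 (3.797% of the list, against 7.37% of all coding genes). Rabbit V5 was at 4 of the 79 (5.06%, against 8.09%) and mouse V5 at 1 (1.27%, against 6.27%). These differences were not tested. RPS19 was the strong member, with FLAG at 63.1 and 72.2, rabbit V5 at 35.6 and mouse V5 at 25.8. Mitochondrial ribosomal protein genes had FLAG at 24 of 78 (30.8%) and V5 with it at 7 (8.97%), led by MRPL2 in all 3 lists. Oxidative phosphorylation genes were also near the background, with FLAG at 17 of 78 (21.8%) and V5 with it at 6 (7.69%). Aminoacyl-tRNA synthetase genes had FLAG at 11 of 37 (29.7%) and V5 with it at 3 (8.11%). The counts were 13 of 48 (27.1%) and 5 (10.4%) for splicing genes. For genes of Mediator, TFIID and Pol II they were 22 of 65 (33.85%) and 7 (10.8%). The splicing genes SF3B6, SNRPD2 and SNRPD3 had FLAG values from 76.7 to 111.3. PARS2 was the single aminoacyl-tRNA synthetase gene with V5 alone (named after its values were seen), at 39.6 (rabbit) and 44.8 (mouse). None of 390 olfactory receptor genes, which are silent in most tissues, had a summit of any antibody.

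**Figure D5:**
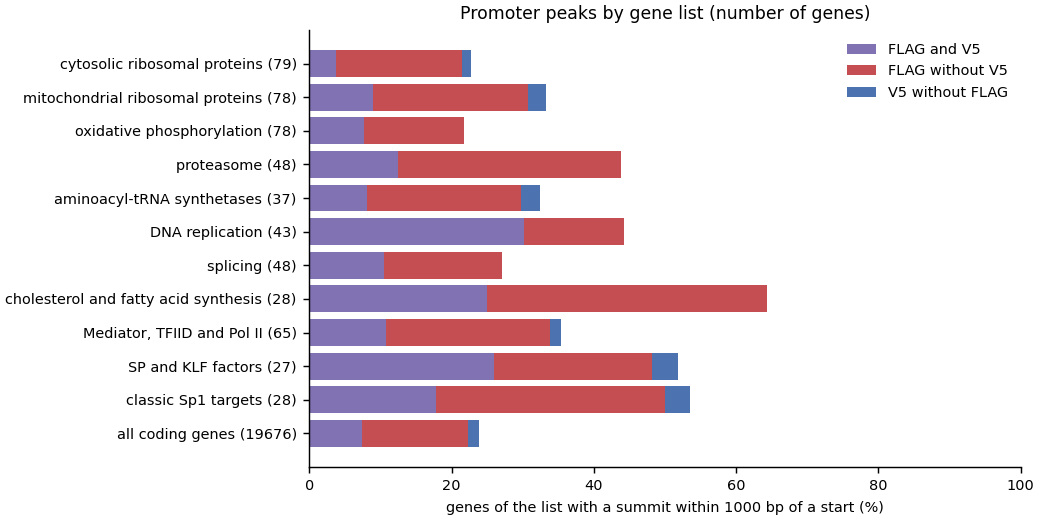
Percent of the coding genes of each list (x axis, number of genes in brackets) with a promoter summit of FLAG and V5, of FLAG alone or of V5 alone, with all coding genes at the bottom. FLAG was at 64.3% of cholesterol and fatty acid genes and at 21.5% of cytosolic ribosomal protein genes, against 22.3% of all coding genes; olfactory receptor genes (0 of 390) are not drawn.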

How the data were processed

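The 6 CUT&RUN samples of the Sp1 WT line and, as outside readouts, lists of the parental, SNAP-NLS and Sp1 DBD lines were used, grouped by the labels. Per the methods and the processing notes of the submitters, adapters were removed by cutadapt 2.6, reads placed on hg38 by Bowtie2 2.3.5.1, duplicates dropped in SAMtools 1.9, and peaks called against merged controls in MACS3 (version stated: 2.2.7.1). The authors then ranked replicates by p-value for IDR, keeping an IDR of at most 0.1. The deposited −log10 p-values and IDR values (−log10) of each peak are the authors', and the value of a merged peak is the smaller of its replicates. Which labelled replicate came first is not given, and read numbers were not analysed here. Intervals cover counting error only.

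Overlap meant at least 1 bp in common, checked against bedtools 2.31.1. Starts came from GENCODE 44, and sequence from hg38. A summit within 1000 bp of a start counted as a promoter. Repeated sequence means that at least 50% of the 31-base words within 100 bp of the summit of a peak occur elsewhere in hg38. Shares were compared with SciPy 1.17.1 by Fisher's exact tests (threshold 0.05, Benjamini-Hochberg over 18 tests, 12 tests within rank classes and 2 between lists adjusted apart) or exact binomial tests (4 tests), widths by 100000 permutations, and ranks by limma 3.58.1, all two-sided. The overlap, Fisher and limma steps were tested on simulated data. P-values over peaks compare lists, and neighbouring peaks are not independent. Named genes were, outside repeated sequence and within 1000 bp of a coding start, the 8 leading sites of each kind, the 5 with the lowest p in each direction of the rank test, SP1 and PPP1R12C, and members of 12 gene lists in order of FLAG value. Members and lists were chosen with earlier results of these data known. Alternatives were stricter IDR, other overlap rules, equal list length, other promoter and motif windows, removal of repeats, controls or contigs, and leaving out each replicate.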

Additional observations from a re-analysis of the deposited data

How the results depend on the processing

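No paired analysis was possible because the replicate columns carry no replicate numbers of the labels. At an IDR of at most 0.01, 35.2% of FLAG peaks had a V5 peak, 73.3% of rabbit and 78.6% of mouse V5 peaks a FLAG peak, 73.9% of rabbit V5 peaks a mouse V5 peak and 78.6% of mouse V5 peaks a rabbit V5 peak. The genes with FLAG and V5 were then 882, and those with FLAG alone 1544. With equal list length the shares were 65.5%, 54.9%, 59.2%, 74.6% and 74.2% in the same order, and the genes 836 with both, 438 with FLAG alone and 664 with V5 alone, as fewer FLAG peaks remain by construction. Without repeated sequence, 80.6% of rabbit V5 peaks had a FLAG and 67.8% a mouse V5 peak. Of mouse V5 peaks, 81.85% then had a FLAG and 85.9% a rabbit V5 peak, so that the V5 lists hardly differed in their share with FLAG. Over pairs of replicates, rho ran from 0.58 to 0.62 for FLAG and rabbit V5, reached 0.67 for FLAG and mouse V5 and fell to 0.78 between the V5 antibodies, and the width ratio ran from 1.40 to 2.27 for rabbit V5 and reached 2.49 for mouse V5.

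The odds ratio of any promoter, coding or noncoding, for shared over FLAG-only peaks was 1.24 (Fisher's exact test, p = 0.0082). It was 1.02 within 5000 bp, 0.94 at an IDR of at most 0.01, and 0.96, 1.09, 0.76 and 1.96 in the 4 FLAG rank classes from the highest down, without passing the test in these. The GC box odds ratio was 1.18 and 1.68 in the lower 2 classes, where it did not pass. The cause was not tested. Leaving out 1 replicate column gave between 9 and 95 sites that differed in rank, each time with the same sites compared and 1 fewer column. Distances between merged summits of FLAG and V5 stayed between 26.5 and 28.5 bp under the alternatives run. At the 10 promoters named from the rank test, 79 of 90 alternative fits gave the same call, 11 lost it and 0 changed direction. All 11 left out a FLAG column and fell on 8 of the 10 promoters, all but COQ6 and TRAPPC9. Read numbers were not analysed here, so no limit from depth is given.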
